A study of Mus musculus with 45 samples.

Results

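Ms4a4c, Ms4a6b, Ms4a6c, Ms4a6d and Ms4a7 are 5 genes of the Ms4a family of membrane proteins, and their RNA levels were examined in bone marrow-derived macrophages carrying 3 alleles of Famin. The 5 members were found by symbol in the deposited CPM table and then by Ensembl gene identifier in the count table of 29307 genes, which also held 16 other genes of the family. The study asks how FAMIN (Lacc1), an enzyme of purine metabolism in macrophages, acts in cells that carry Famin p.254I, Famin p.254V or Famin p.284R. Mice of these 3 genotypes were on the C57BL/6N strain and 6 to 10 weeks old. Marrow cells were grown with M-CSF. M0 cultures then received no stimulus, M1 cultures received IFN-γ (50 ng/mL) together with LPS (20 ng/mL), and M2 cultures received IL-4 (20 ng/mL), each for 24 h. There were 45 libraries in 9 groups of 5, and the M0, M1 and M2 libraries that share a genotype and a number were treated as coming from 1 of 15 mice. The labels do not state that replicates were separate animals, so p-values measure the spread between these samples.

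Proteins of the MS4A family cross the membrane several times and sit in complexes with immune receptors. The best known are Ms4a1, which encodes the B cell antigen CD20, and Ms4a2, which encodes the beta chain of the high-affinity IgE receptor of mast cells and basophils. In macrophages Ms4a4a associates with the beta-glucan receptor Dectin-1 (Clec7a), Ms4a6d associates with the complement receptor Vsig4, and human family members are linked to the level of soluble TREM2. Ms4a7 is widely used as a marker of macrophages, and Ms4a6b and Ms4a4b are also known from T cells.

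The members lie together on chromosome 19 of GRCm38 (mm10), among the other Ms4a genes. Ms4a7 occupies chr19:11321039-11336146 on the minus strand. Ms4a4c (chr19:11404770-11427246), Ms4a6c (chr19:11469366-11482192) and Ms4a6b (chr19:11516512-11531256) follow on the plus strand, and Ms4a6d (chr19:11586604-11604849) is again on the minus strand. All 5 are protein-coding. Across coding sequences, Ms4a6b was 85.8% identical to Ms4a6c and 81.2% identical to Ms4a6d, and Ms4a6c and Ms4a6d shared 77.4%. Ms4a4c was closest to Ms4a4b, with 91.7% identity. Reads were 50 bases long per the sample labels, and 10.5% of the 50-base stretches of Ms4a6c transcripts, 8.19% of those of Ms4a4c, 3.57% of those of Ms4a6b, 2.54% of those of Ms4a6d and 0.306% of those of Ms4a7 occurred on the same strand of another gene. A further overlap touches Ms4a6c, since 51.4% of its stretches were shared when both strands were counted, mostly with the antisense gene BE692007. That gene had between 0 and 6 counts in the libraries. How the counting tool used strand and multiply mapped reads is not given in the sources used here, so the values of Ms4a6c, Ms4a6b and Ms4a4c carry this uncertainty.

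RefSeq promoter windows (GRCm38.p6) were found for 4 of the 5 members, all except Ms4a6d, and the 250 bases before the start site were searched. The windows of Ms4a4c and Ms4a6b lie inside the gene spans given above, downstream of the annotated gene starts. The bases before those gene starts were not searched. Ms4a6b and Ms4a6c are shown first because they had the most similar levels across libraries. Capitals mark the 24-base and the 48-base run that these 2 windows have in common.
Ms4a6b, chr19:11518309-11518558, plus strand: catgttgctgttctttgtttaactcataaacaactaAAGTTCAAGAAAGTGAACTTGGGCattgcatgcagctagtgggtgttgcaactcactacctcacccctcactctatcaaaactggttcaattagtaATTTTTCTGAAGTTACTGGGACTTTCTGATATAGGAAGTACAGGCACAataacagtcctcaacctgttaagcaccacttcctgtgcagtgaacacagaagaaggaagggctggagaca
Ms4a6c, chr19:11469118-11469367, plus strand: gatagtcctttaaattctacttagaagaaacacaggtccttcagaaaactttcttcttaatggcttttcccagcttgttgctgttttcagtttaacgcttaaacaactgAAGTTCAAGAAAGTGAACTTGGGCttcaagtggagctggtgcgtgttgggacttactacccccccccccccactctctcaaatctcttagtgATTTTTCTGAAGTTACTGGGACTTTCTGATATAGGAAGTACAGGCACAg
The shorter run lies at bases -214 to -191 of Ms4a6b and -141 to -118 of Ms4a6c, and the longer run at -118 to -71 and -49 to -2. The window of Ms4a4c, the member with the widest range of levels, and the first of 2 windows of Ms4a7, the member that was lower in M1 and M2, are shown for comparison. Capitals mark matches to the searched motifs.
Ms4a4c, chr19:11407411-11407660, plus strand: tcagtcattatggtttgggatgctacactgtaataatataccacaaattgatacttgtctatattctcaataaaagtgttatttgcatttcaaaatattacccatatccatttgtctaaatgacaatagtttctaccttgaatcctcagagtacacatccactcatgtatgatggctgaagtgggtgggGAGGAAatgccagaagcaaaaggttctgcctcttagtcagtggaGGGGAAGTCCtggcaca
Ms4a7, chr19:11336147-11336396, minus strand: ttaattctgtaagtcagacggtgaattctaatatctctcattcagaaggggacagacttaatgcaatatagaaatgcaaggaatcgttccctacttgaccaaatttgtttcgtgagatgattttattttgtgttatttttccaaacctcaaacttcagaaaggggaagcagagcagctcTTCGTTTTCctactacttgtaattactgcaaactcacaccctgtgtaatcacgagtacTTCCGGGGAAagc
Both strands were searched. A full interferon response element (GAAANNGAAA) matched no member's window, and was in 2.98% of all 32851 promoter windows. A STAT6-type motif (TTCNNNNGAA, in 5.85% of windows) matched Ms4a7 at -13 to -4. A PU.1-type motif (GAGGAA, in 23.3%) matched Ms4a4c at -61 to -56, and an NF-kB-type motif (GGGNNNNNCC, in 45.8%) matched Ms4a4c at -17 to -8 and Ms4a6c at -189 to -180. A shorter form of the interferon response element (GAAANNGAA, in 7.13%), added after these sequences had been seen, matched Ms4a6b at -206 to -198 and Ms4a6c at -133 to -125, within the shorter common run, and Ms4a7 at -71 to -63.

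Total counts per library ranged from 17239009 to 43740283, so 1 CPM (a count scaled to library size, here here by the trimmed mean of M values, TMM) stood for 16.5 to 48.2 reads. The 6 macrophage markers, Adgre1 and Csf1r among them, summed to between 5431 and 11006 CPM. The 5 T cell markers summed to 20.5 to 46.7 CPM in M0, 7.33 to 12.7 in M1 and 2.52 to 6.43 in M2, with Cd3e, Cd3g and Cd8a at a median count of 0 in each polarization. The 4 B cell markers summed to at most 11.8 CPM, the 4 mast cell and basophil markers to at most 0.319 and the 4 dendritic cell markers to at most 12.8, while the 5 neutrophil markers ranged from 12.7 to 196 CPM. Cxcl9 followed the labels, with at least 978 CPM in M1 and at most 1.45 elsewhere, and so did Arg1, with at least 704.6 CPM in M2 and at most 40.8 elsewhere. Nos2 followed them as well, with at least 3.01 CPM in M1 and at most 0.573 elsewhere. Il12b, also chosen to check the M1 label, did not, with 0 to 0.201 CPM in M1 and 0 to 0.136 in M0. The library of 254I replicate 4 in M0 stood apart in the members and in type I interferon response genes, and results that rest on it are given with and without that mouse.

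The order of the members changed with polarization. Levels were compared between genes as CPM per kb of annotated exon. The length counts every annotated exon, from 1735 bases for Ms4a6d to 4485 for Ms4a6b, whichever transcripts the cells made, so the order rests on these lengths. In plain CPM without 254I replicate 4, Ms4a7 was above Ms4a6d in M2, with means of 245, 296 and 266 against 204, 218 and 216 in 254I, 254V and 284R. In M1 Ms4a6b was then above Ms4a6d, with 295, 303 and 325 against 259, 265 and 318. In M0, Ms4a7 had the highest mean level per kb at 155.5 ± 26.8 (SD, n = 15), followed by Ms4a6d at 115 ± 31.2, Ms4a6c at 110 ± 38.5, Ms4a6b at 31.8 ± 17.7 and Ms4a4c at 10.5 ± 17.6. Ms4a7 was above Ms4a6d in 15 of 15 M0 libraries, whereas Ms4a6d was above Ms4a6c in only 9 and the pair did not differ beyond its spread. In M1 the order was Ms4a6c at 246 ± 40.3 CPM per kb, Ms4a6d at 165 ± 38.5, Ms4a4c at 108 ± 37.8, Ms4a6b at 69.1 ± 12.5 and Ms4a7 at 38.4 ± 12.9. Each was above the next in 15 of 15 libraries, except that Ms4a4c was above Ms4a6b in 13. In M2 Ms4a6d led at 126 ± 14.1 CPM per kb, ahead of Ms4a7 at 61.8 ± 10.4, Ms4a6c at 20.4 ± 4.56, Ms4a6b at 1.80 ± 0.741 and Ms4a4c at 0.911 ± 0.704, with every step seen in 15 of 15 libraries. Thus Ms4a7 moved from the top in M0 to the bottom in M1. By its mean per kb Ms4a6d was first or second in each polarization, although Ms4a6c was above it in 6 of 15 M0 libraries.

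**Figure D1:**
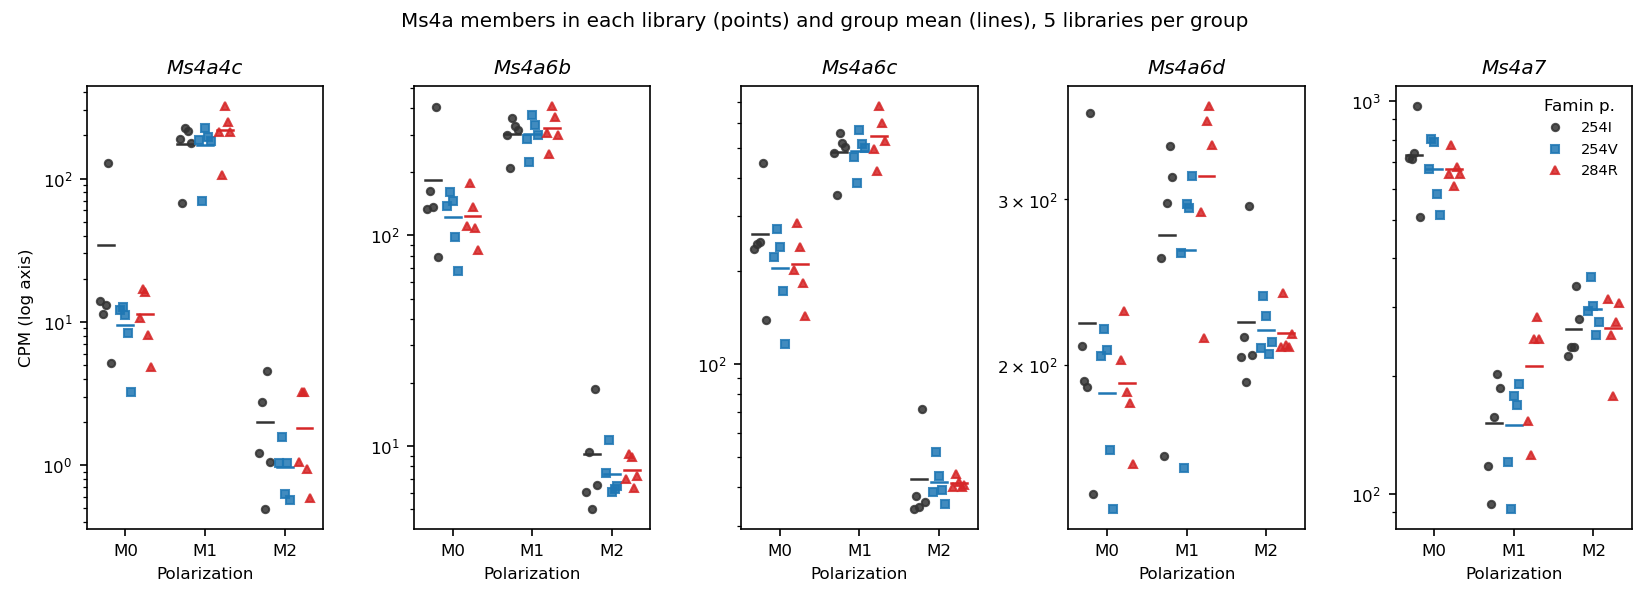
CPM of each member on a log axis in M0, M1 and M2, with 1 point per library, colours for the 3 genotypes and lines for the mean of 5 libraries. Ms4a4c, Ms4a6b and Ms4a6c were highest in M1 and lowest in M2, Ms4a7 was highest in M0, and Ms4a6d spanned only 140.5 to 377 CPM.

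Between polarizations, averaged over genotypes, 5 of 5 members were called in M1 against M0 (a Benjamini-Hochberg adjusted p under 0.05 in edgeR's quasi-likelihood test over 12905 genes), where 77.3% of all genes were called. Of these 4 were higher in M1, a direction in which 37.0% of genes were called, and Ms4a7 was lower, as were 40.3% of genes. In M2 against M0, 4 of 5 were called, all lower, against 76.4% of genes called, 36.8% higher and 39.6% lower. In M1 against M2, 5 of 5 were called, 4 higher and 1 lower, against 79.1% of genes called, 39.0% higher and 40.1% lower. With backgrounds this high, the number of members called says little about the members, and their sizes and order are described below. The median log2 fold change of the 5 was 1.14 in M1 against M0, -2.42 in M2 against M0 and 3.59 in M1 against M2, beside medians of -0.03, -0.03 and -0.01 over all genes. The first 2 comparisons share the M0 libraries, and the fit did not pair the cultures of a mouse. In RNA from whole cultures, fewer cells of a type and less RNA per cell cannot be told apart.

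Ms4a4c had the widest range of the 5. Its CPM ran from 3.23 through a median of 11.4 to 128.9 in the 15 M0 libraries, from 67.1 through 195 to 320.2 in M1, and from 0.495 through 1.04 to 4.51 in M2. M1 libraries did not overlap with M2 libraries, M2 and M0 overlapped at their edge, and the overlap of M1 with M0 came from 254I replicate 4, whose M0 value was the highest, while the next M0 value was 17.0. Ms4a4c was 12.1-fold higher in M1 than in M0 (log2 fold change 3.60 ± 0.34 SE, adjusted p = 1.66e-12) and 10.1-fold lower in M2 than in M0 (-3.33 ± 0.40, adjusted p = 1.76e-09). It was 122-fold higher in M1 than in M2 (6.93 ± 0.42, adjusted p = 2.73e-18). Without the mouse 254I replicate 4 the log2 fold changes were 4.14 ± 0.25 in M1 against M0 and -2.96 ± 0.31 in M2 against M0. Every mouse showed both directions, with 15 of 15 higher in M1 and 15 of 15 lower in M2.

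Ms4a6b and Ms4a6c, the pair with the common promoter runs, shared the direction of Ms4a4c with a smaller step up and a large step down. Ms4a6b ran from 67.8 through a median of 136 to 405 CPM in M0, from 208 through 307 to 410.4 in M1 and from 5.02 through 6.93 to 18.7 in M2. Its M2 libraries were all below every M0 and M1 library, and M0 and M1 overlapped through 254I replicate 4 alone, as the next M0 value was 178. Ms4a6b was 2.21-fold higher in M1 than in M0 (log2 fold change 1.14 ± 0.17, adjusted p = 1.62e-07) and 17.4-fold lower in M2 (-4.12 ± 0.20, adjusted p = 5.96e-21). The rise to M1 was seen in 14 of 15 mice and the fall to M2 in 15 of 15. Ms4a6c ran from 116 through a median of 235 to 446 CPM in M0, from 351 through 504 to 681 in M1 and from 34.0 through 40.0 to 71.4 in M2. Its M2 libraries were again below all others, and each of 15 mice had a higher M1 and a lower M2 than M0 value. Ms4a6c was 2.25-fold higher in M1 than in M0 (1.17 ± 0.13, adjusted p = 1.2e-10) and 5.36-fold lower in M2 than in M0 (-2.42 ± 0.13, adjusted p = 4.4e-19). Between M1 and M2, Ms4a6b differed 38.5-fold (5.27 ± 0.21, adjusted p = 1.87e-24) and Ms4a6c 12.0-fold (3.59 ± 0.14, adjusted p = 1.28e-24).

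Ms4a6d, the partner of Vsig4, changed least. It ran from 140.5 through a median of 192 to 371 CPM in M0, from 155 through 296 to 377 in M1 and from 192 through 210.1 to 295 in M2, and the 3 ranges overlapped. It was 1.43-fold higher in M1 than in M0 (log2 fold change 0.52 ± 0.11, adjusted p = 6.54e-05), in 11 of 15 mice, and 1.30-fold higher in M1 than in M2 (0.38 ± 0.11, adjusted p = 0.00199), in 12 of 15 mice. M2 against M0 was not called (0.13 ± 0.11, adjusted p = 0.268), with 13 of 15 mice higher in M2, and without 254I replicate 4 it was 0.19 ± 0.10 (adjusted p = 0.0657).

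Ms4a7, the macrophage marker, went the other way. It ran from 508 through a median of 682 to 973 CPM in M0, from 91.8 through 169 to 282 in M1 and from 178 through 275 to 357 in M2. All M0 libraries were above all M1 and M2 libraries, and M1 and M2 overlapped. Ms4a7 was 4.10-fold lower in M1 than in M0 (log2 fold change -2.03 ± 0.12, adjusted p = 3.22e-18) and 2.52-fold lower in M2 than in M0 (-1.33 ± 0.12, adjusted p = 9.37e-13), in 15 of 15 mice each. It was lower in M1 than in M2 by a smaller step (-0.70 ± 0.12, adjusted p = 1.56e-06), in 13 of 15 mice.

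Of the 16 other family genes, 7 passed the filter on low counts, and 9 did not. Those 9 were Ms4a10, Ms4a13 and Ms4a18, which had 0 counts in all 45 libraries, and Ms4a1, Ms4a2, Ms4a4d, Ms4a5, Ms4a12 and Ms4a15, which reached at most 9 counts in any library. Among the 7, 4 were called in M1 against M0, all lower, 5 in M2 against M0, all lower, and 5 in M1 against M2, 1 higher and 4 lower. Of all genes 77.3%, 76.4% and 79.1% were called in these comparisons, 40.3%, 39.6% and 40.1% of them all as lower, so these counts say little about the 7. Ms4a4a, the partner of Dectin-1 that lies between Ms4a7 and Ms4a4c, ran from 62.4 through a median of 171.5 to 312 CPM in M0, from 4.30 through 5.97 to 10.3 in M1 and from 31.1 through 80.7 to 197 in M2. Its M1 libraries were all below its M0 and M2 libraries, with a log2 fold change of -4.74 ± 0.27 in M1 against M0 (adjusted p = 6.57e-19) and -0.85 ± 0.23 in M2 against M0 (adjusted p = 0.000947). Ms4a14, the neighbour of Ms4a7, had log2 fold changes near those of Ms4a7, with -2.15 ± 0.13 in M1 and -1.44 ± 0.13 in M2. Its level was lower than that of Ms4a7, with 68.5 to 131.7 CPM in M0 against 508 to 973. Tmem176a and Tmem176b, relatives on chromosome 6, fell too, by 1.90 and 1.80 in M1 and by 0.78 and 0.95 in M2 on the log2 scale, and these 2 genes overlap each other on opposite strands. Ms4a4b, near-identical to Ms4a4c in its coding sequence, had at most 2.93 CPM, and it was called lower in M2 (-2.64 ± 0.25, adjusted p = 1.65e-12) but not in M1 (-0.06 ± 0.20, adjusted p = 0.806). Of its 50-base stretches 2.40% occurred on the same strand of another gene, Ms4a4c among them. Its low values therefore carry the uncertainty about multiply mapped reads too. Ms4a3 and Ms4a8a stayed under 1 CPM in every library and were not called. With the replicate number as a block, Ms4a8a was called higher in M1 (0.59, adjusted p = 0.00848) and in M2 (0.51, adjusted p = 0.0221) against M0.

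**Figure D2:**
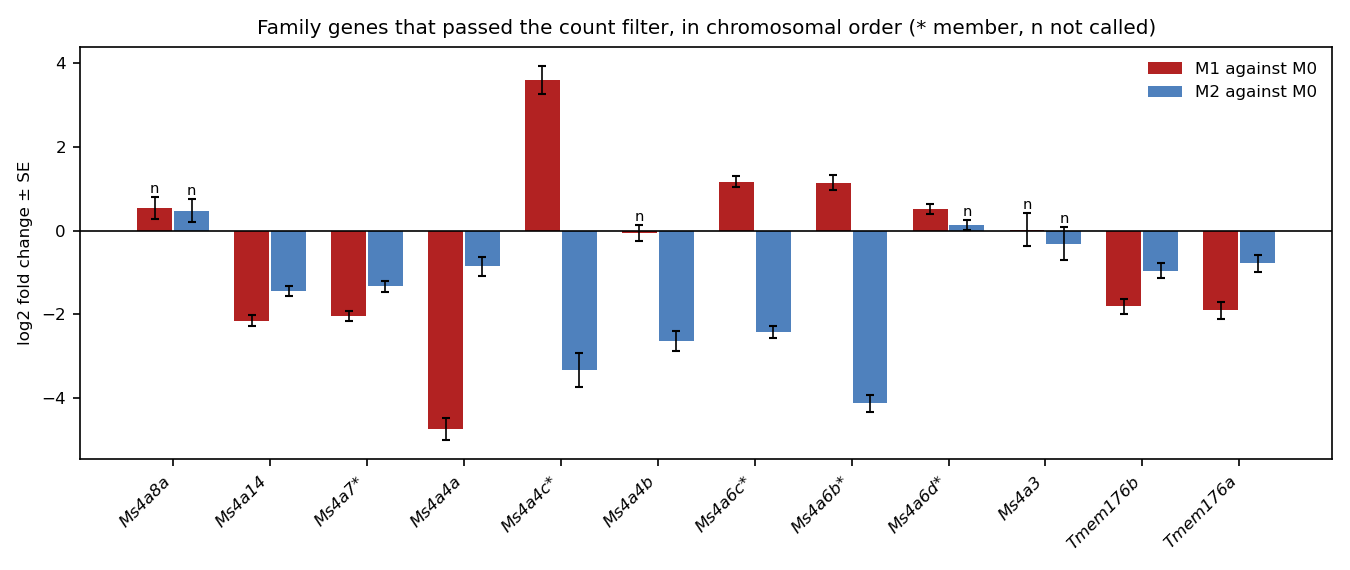
Log2 fold changes (bars) with their SE (error bars) for the 12 family genes that passed the count filter, in M1 and in M2 against M0, in chromosomal order, with asterisks for the 5 members and n for changes that were not called. Upward bars that were called in M1 belong to Ms4a4c, Ms4a6c, Ms4a6b and Ms4a6d, which lie side by side with Ms4a4b among them, whereas Ms4a14, Ms4a7 and Ms4a4a on the other flank point down.

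Lists of related genes were set beside the members, and a gene that rose or fell is one called higher or lower. Of all genes 37.0% were called higher and 40.3% lower in M1 against M0, and 36.8% and 39.6% in M2 against M0. The median log2 fold change of all genes was -0.03 in both. Of 6 genes tied to MS4A proteins, 1 rose and 5 fell in M1 against M0 (median log2 fold change -0.94), and 1 rose and 5 fell in M2 (median -0.33). Vsig4, called lower in both, had 5 to 88 counts in M0 libraries, 0 to 15 in M2 and 0 to 3 in M1, where 12 of 15 libraries were at 0, so the size of its change is not given. Trem2 fell by 1.91 and 0.33 on the log2 scale, while Nlrp3, the inflammasome sensor, rose in M1 (1.02) and fell in M2 (-1.45). Clec7a, the Dectin-1 gene, fell in M1 (-1.10) and was the 1 that rose in M2 (1.46). Of 10 type I interferon response genes, 10 rose in M1 (median 2.85), and 9 fell in M2 (median -1.82), the exception being Usp18 at 0.35 (adjusted p = 0.0811). Ifit2 had log2 fold changes of 3.67 and -3.33, close in size to those of Ms4a4c, and Ifit3 of 2.33 and -4.26. Of 8 interferon-gamma response genes, 8 rose in M1 (median 5.11), whereas in M2 4 rose, 2 fell and 2 were not called (median 0.39). Of 8 genes of tissue macrophages, 3 rose and 4 fell in M1 (median -0.44) and 1 rose and 7 fell in M2 (median -1.06). In that list Cx3cr1, the fractalkine receptor, fell by 5.97 in M1 and by 6.46 in M2, and Apoe by 1.41 and 1.42. Of 8 IL-4 response genes 7 were tested, and 7 rose in M2 (median 6.40), while in M1 1 rose, 2 fell and 4 were not called.

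Genes with the pattern most like each member were found by Pearson's r of log2 CPM over the 45 libraries, which share mice, depth and the 3 polarizations, leaving out genes named Ms4a. For Ms4a4c they were Cmpk2 (r = 0.995), Ifit1 (0.995), Ifit2 (0.992), Mx2 (0.990) and Irf7 (0.989), all interferon-induced genes. For Ms4a6b they were Limd2 (0.988), Nectin4 (0.987), Ifit3b (0.986), Pde7b (0.985) and Fcgr1 (0.983), the gene of a high-affinity IgG receptor. Ms4a6c shared Fcgr1 (0.987) and Nectin4 (0.985) with it, and had Slfn8 (0.988), Lst1 (0.986) and Ifit3 (0.985) besides. For Ms4a7 they were the C-type lectin Clec4d (0.971), St18 (0.968), S1pr1 (0.953), Osbpl8 (0.951) and Por (0.949). Ms4a6d had looser matches, among them Saa3 (0.846), Vps33a (0.835), Lsm14a (0.801) and Ensa (0.797). Among the members, r was 0.991 for Ms4a6b with Ms4a6c, 0.956 for Ms4a4c with Ms4a6c and 0.927 for Ms4a4c with Ms4a6b, but only 0.369 for Ms4a6b with Ms4a6d and -0.315 for Ms4a4c with Ms4a7.

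With each library taken as its deviation from the mean of its group, r was 0.944 for Ms4a6b with Ms4a6c, 0.850 for Ms4a6c with Ms4a6d and 0.839 for Ms4a6d with Ms4a7 over the 45 libraries. Without the mouse 254I replicate 4 these were 0.914, 0.807 and 0.833 over 42 libraries. The pairs of Ms4a7 with Ms4a4c and with Ms4a6b were looser, at 0.479 and 0.605 with all libraries and 0.375 and 0.568 without that mouse. The summed CPM of the 10 type I interferon genes, as a log2 deviation in the same way, had r = 0.961 with Ms4a4c, 0.905 with Ms4a6b, 0.838 with Ms4a6c, 0.746 with Ms4a6d and 0.377 with Ms4a7. Without that mouse the values were 0.946, 0.817, 0.731, 0.623 and 0.222.

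**Figure D3:**
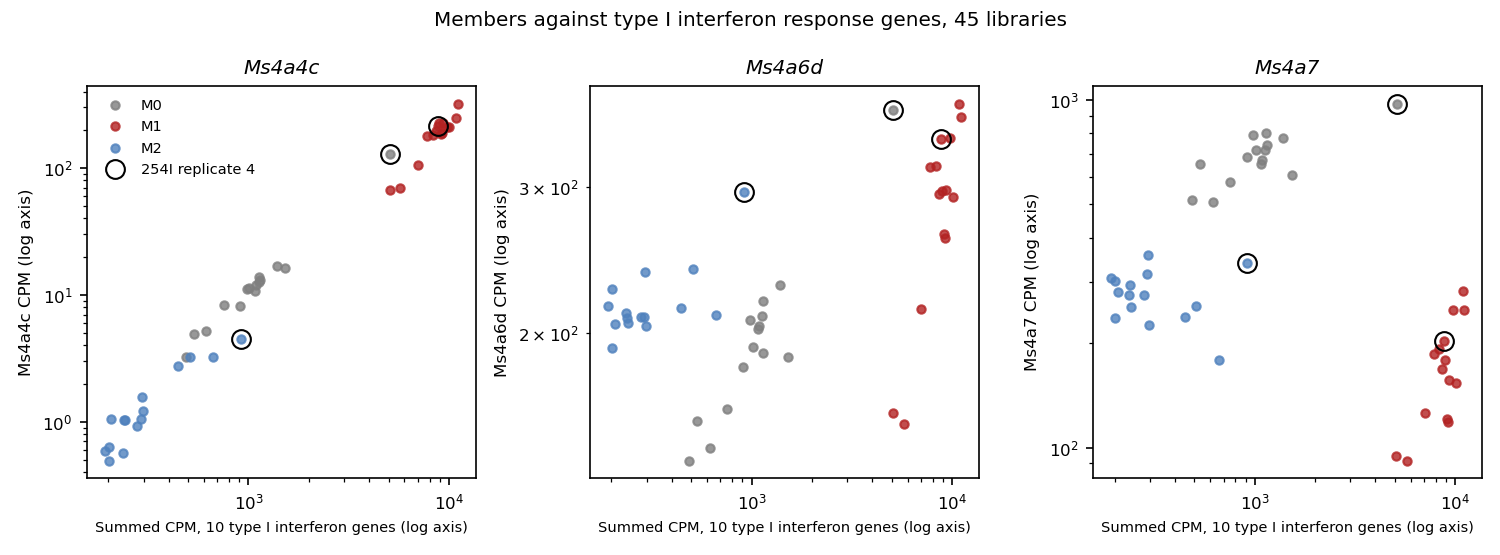
CPM of Ms4a4c, Ms4a6d and Ms4a7 (vertical, log axis) against the summed CPM of 10 type I interferon response genes (horizontal, log axis) in 45 libraries coloured by polarization, with the 3 libraries of 254I replicate 4 ringed. Ms4a4c lies along a single band from M2 through M0 to M1, on which the ringed M0 library at 128.9 CPM sits next to the M1 libraries, whereas Ms4a6d and Ms4a7 do not follow a single band across polarizations.

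The mouse 254I replicate 4 had high member levels in M0 and M2. In M0 it had 128.9 CPM of Ms4a4c, while the other 4 254I libraries had 13.9, 11.4, 13.2 and 5.15, a ratio of 11.8 to their mean. It had 405 CPM of Ms4a6b against 132.6, 162.6, 135.8 and 79.1, and 446 CPM of Ms4a6c against 235, 245, 248 and 139. Ms4a6d was at 371 CPM against 209, 192, 189 and 146, and Ms4a7 at 973 against 717, 716, 740.3 and 508. For all 5 members it was the highest of the 15 M0 libraries. In M2 it was the highest of 15 for Ms4a4c (4.51 CPM), Ms4a6b (18.7), Ms4a6c (71.4) and Ms4a6d (295), but in M1 at least 3 other libraries exceeded it for each member. The type I interferon list summed to 5096 CPM in its M0 library, 618 to 1145 in the other 254I M0 libraries and 5078 to 11099 in M1, and in M2 to 919.5 against 201 to 447. Its M2 library also had the lowest IL-4 response sum of the 15 M2 libraries, 3488 CPM against 5609 to 8367 in the other 254I libraries, the lowest dendritic cell sum, 3.83 against 6.27 to 12.8, and the highest macrophage sum, 7981 against 5431 to 6389. The interferon-gamma list stood at 616 CPM against 270.1 to 492 in the other 254I M0 libraries and at least 14654 in M1. Nos2, Cxcl9 and Il12b, chosen to check the M1 label, summed to 1.60 CPM, the highest of the 15 M0 libraries. This sum was 0.363 to 0.539 in the other 254I M0 libraries and at least 981 in M1. In M1 it was mostly Cxcl9, with a median of 3261 CPM beside 19.7 for Nos2 and 0.083 for Il12b. Its T cell markers summed to 30.3 CPM against 22.8 to 42.9 in the other 254I M0 libraries, its B cell markers to 11.8 against 7.76 to 10.8, its neutrophil markers to 63.6 against 19.3 to 174 and its dendritic cell markers to 0.547 against 0.893 to 1.35. The part of these differences in the results was not tested.

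Between genotypes, averaged over polarizations, 0 of 5 members were called in any of 3 comparisons by edgeR's test. The fit had no term for mouse, so the 3 cultures of a mouse counted as independent libraries in these averages and their SEs. The share of all genes called was 0.0155% in 284R against 254I, 0.0155% in 254V against 254I and 0.0% in 284R against 254V. At an unadjusted p under 0.05 there was 1 member, Ms4a4c in 254V against 254I, with a log2 fold change of -1.01 ± 0.39 (adjusted p = 1.00), which was -0.23 ± 0.31 (adjusted p = 1.00) without the mouse 254I replicate 4. Within M0, 0 of 5 members were called in each comparison, as were 0.0% of all genes. Ms4a4c had 13.9, 11.4, 13.2, 128.9 and 5.15 CPM in 254I replicates 1 to 5, 12.0, 12.6, 11.1, 8.38 and 3.23 in 254V, and 10.7, 17.0, 16.3, 8.14 and 4.88 in 284R. Apart from the single high 254I library the 3 genotypes overlapped. The log2 fold change of Ms4a4c was -1.88 ± 0.57 in 254V and -1.58 ± 0.56 in 284R against 254I in M0 (adjusted p = 1.00 in both), and without that mouse -0.22 ± 0.42 and 0.08 ± 0.42. For Ms4a6b the same differences went from -0.59 ± 0.30 and -0.57 ± 0.30 to -0.07 ± 0.22 and -0.04 ± 0.22.

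Within M1, 0 of 5 members were called in each comparison, beside 0.263% of genes in 284R against 254I, 0.0% in 254V against 254I and 0.0775% in 284R against 254V. Ms4a7 came closest. Its CPM in M1 was 118, 94.6, 157, 202 and 186 in 254I, 121, 91.8, 178, 169 and 191 in 254V, and 153, 126, 249, 282 and 248 in 284R. Each 284R value was above the 254I and the 254V value with the same replicate number, although the groups overlapped. The log2 fold change was 0.48 ± 0.21 against 254I (adjusted p = 0.635, edgeR) and 0.50 ± 0.21 against 254V (adjusted p = 0.702). Neither was called, although the unadjusted values were under 0.05. The fit had no term for replicate number, so the SEs of genotype differences include the spread between numbers. With the replicate number as a block, no member was called in M1 either. Without 254I replicate 4 the difference from 254I was 0.61 ± 0.21 (adjusted p = 0.478). Ms4a4c, Ms4a6b, Ms4a6c and Ms4a6d in M1 differed by 0.10 to 0.32 on the log2 scale between 284R and 254I, with SEs from 0.19 to 0.52. They too were higher in 284R than in 254I, and than in 254V, with the same replicate number, in 5 of 5 numbers for Ms4a4c, Ms4a6c and Ms4a6d and in 4 of 5 for Ms4a6b. Between 254V and 254I, all 5 were within -0.05 to 0.01 in M1.

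Within M2, 0 of 5 members were called in any comparison, and 0.00775% of all genes were called in 284R against 254I, 0.0% in 254V against 254I and 0.0% in 284R against 254V. Ms4a6d was at 218 ± 13.3 CPM (SD, n = 5) in 254V, 216 ± 12.7 in 284R, and 204 ± 9.18 (n = 4) in 254I without replicate 4. Ms4a6c was at 41.7 ± 6.47 CPM in 254V, 41.3 ± 1.77 in 284R and 35.5 ± 1.53 in 254I without replicate 4. For Ms4a6c the 284R libraries (40.0 to 44.2 CPM) lay above these 4 254I libraries (34.0 to 37.5), with replicate 4 at 71.4, and the log2 fold change was -0.05 ± 0.22 with that mouse and 0.22 ± 0.19 without it (adjusted p = 1.00 in both). The interactions, which test whether the step from M0 differed between genotypes, were called for 0 of 5 members in 4 comparisons, as for 0.0% of all genes in each. At an unadjusted p under 0.05 there were 3, among them Ms4a4c in M1 against M0, whose step was larger by 1.91 ± 0.76 in 284R and by 1.85 ± 0.76 in 254V than in 254I (adjusted p = 1.00 for both), and by 0.32 ± 0.56 and 0.28 ± 0.57 without 254I replicate 4. The third was Ms4a7 in 284R, at 0.60 ± 0.29 (adjusted p = 1.00).

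**Figure D4:**
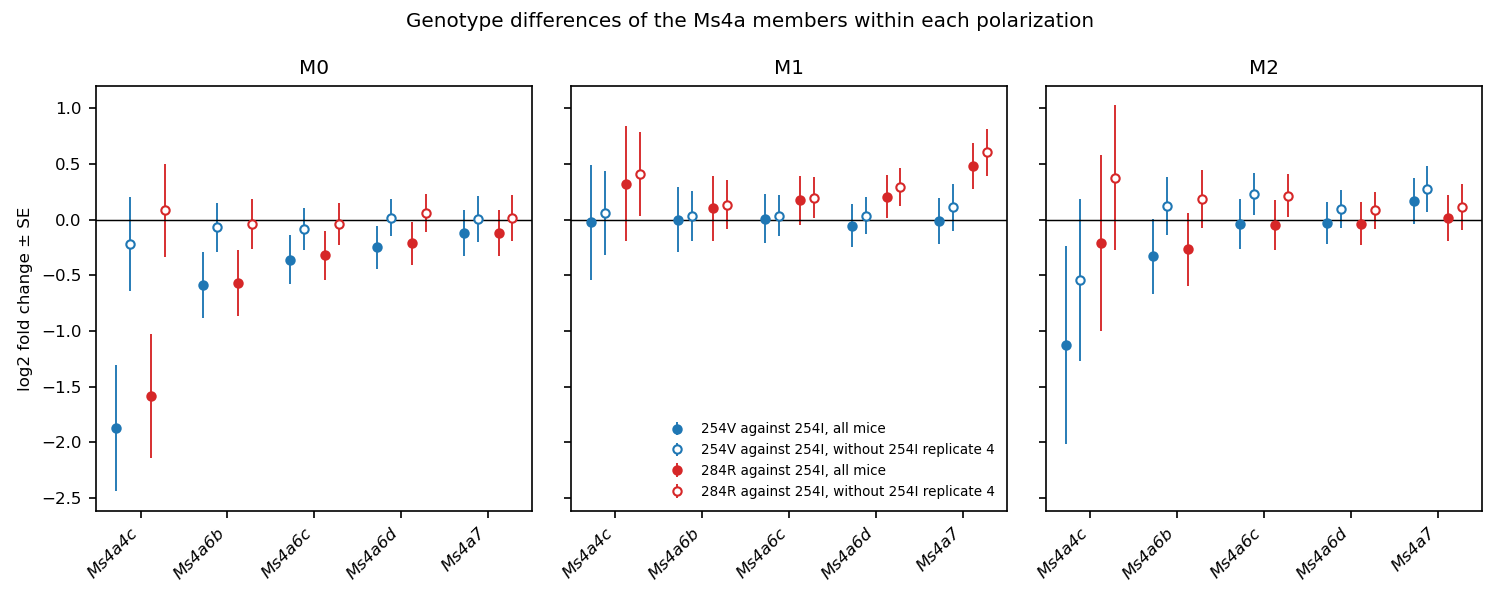
Log2 fold change (points) with SE (lines) of each member in 254V and 284R against 254I within M0, M1 and M2, with filled points for all mice and open points without 254I replicate 4. In M0 the filled points of Ms4a4c lie at -1.88 and -1.58 and the open points at -0.22 and 0.08, and in M1 the points of Ms4a7 in 284R lie at 0.48 and 0.61.

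Replicate numbers carried more of the spread than genotypes did within M0 and within M1. There are more numbers than genotypes, so numbers tend to take the larger share by chance too, and the shares were not tested. In M1, between 75.5% (Ms4a7) and 93.7% (Ms4a6b) of the sum of squares of log2 CPM lay between the 5 replicate numbers and 3.30% to 21.9% between the 3 genotypes. In M0 with all libraries the shares were 42.2% to 60.2% and 4.17% to 13.2%. In M0 without replicate 4 they were 65.8% to 94.5% and 0.0578% to 3.97%. In M2 with all libraries numbers had the larger share for every member, with 38.8% against 11.7% for Ms4a4c and 20.6% against 11.3% for Ms4a7. In M2 without replicate 4 this order did not hold for every member. There 34.7% lay between numbers and 42.5% between genotypes for Ms4a6c, and 20.5% and 28.9% for Ms4a7. Replicate 2 had the lowest M1 level of Ms4a4c in every genotype, with 67.1, 69.7 and 105 CPM in 254I, 254V and 284R, while the other M1 libraries lay between 178 and 320.2. The same held for Ms4a6b (208, 223 and 243 CPM against 285 to 410.4), Ms4a6c (351, 384 and 421) and Ms4a6d (160.2, 155 and 214). These 3 M1 values of Ms4a6d were below the M0 values of the same mice (192, 218 and 228 CPM), and they make 3 of the 4 mice in which Ms4a6d was not higher in M1. The type I interferon list was also lowest in replicate 2 in M1, at 5078, 5726 and 7033 CPM against 7796 to 11099 in the others. In M0, replicate 5 was lowest in each genotype for Ms4a4c (3.23 to 5.15 CPM), Ms4a6b (67.8 to 85.2), Ms4a6c (116 to 143) and Ms4a6d (140.5 to 157), and its type I interferon list summed to 486 to 618 CPM. What the replicate number stands for is not given in the sources used here, and its part in these levels was not tested.

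**Figure D5:**
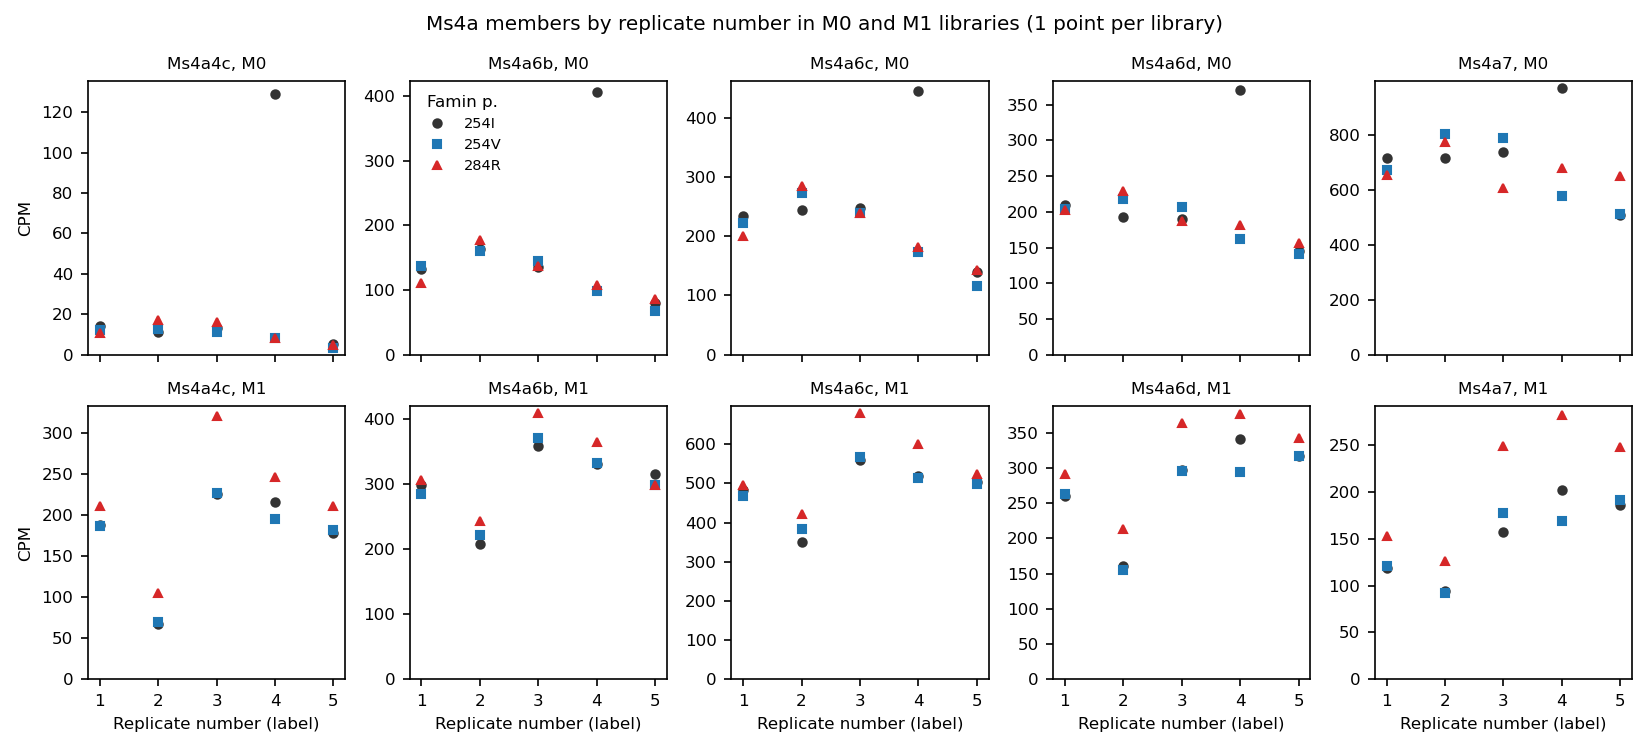
CPM of each member (vertical) in M0 (top) and M1 (bottom) libraries by replicate number (horizontal), with 1 point per library and 1 colour per genotype. Replicate 2 is low in M1 in every genotype, replicate 5 is low in M0, except for Ms4a7 in 284R, 254I replicate 4 lies far above its number in M0, and the 284R points of Ms4a7 lie above the others in M1.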

How the data were processed

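Poly(A) RNA of M0, M1 and M2 bone marrow-derived macrophages was sequenced on a stranded protocol, and the authors trimmed reads with Trim Galore and aligned them with HISAT2 to mm10 (per the labels and the study's methods), whereas the series' design text names Cutadapt and STAR. The series' notes also name FastQC and limma. The counting tool is not given in the sources used here. The authors deposited unnormalized counts per Ensembl gene for 29307 genes and a CPM table for 11900, in which 100% of values were whole reads (tolerance 0.01) equal to the counts. CPM here were recomputed from the counts with TMM factors (0.939 to 1.10).

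Groups were taken from the sample labels. Genes were kept by filterByExpr (12905, including 5 of 5 members), and edgeR 4.0.16 in R 4.3.3 fitted its quasi-likelihood model to the 9 groups. The model had no term for mouse, so the cultures of a mouse were treated as independent. A gene was called where its p, adjusted by Benjamini-Hochberg, fell under 0.05. Polarizations and genotypes were compared as averages and within each other. SE is the log2 fold change divided by the square root of F, and log2 CPM for r used a prior count of 1. On simulated counts with log2 changes of 1, 95.4% of changed genes were called in M1 against M0 (12675 genes) and 95.9% in 284R against 254I (12678 genes). These counts were drawn independently for each library, without mouse or replicate-number effects, and the genotype change was put in all polarizations. The shares therefore do not apply to smaller changes or to genotypes within 1 polarization. Alternatives were DESeq2 1.42.0 (its size factors, and its Wald test), limma-voom 3.58.1, other count filters, blocks for replicate number and mouse, sums per mouse, the compared libraries alone, each mouse left out and, chosen after seeing the data, the reads recovered from CPM. Libraries with the same number deviated from group means together (r over 0.1 in 15 of 15 pairs in M0 and in M1, 13 of 15 in M2, over 9522 genes), so the numbers were taken to pair libraries in M0 and M1. No 2 libraries were identical.

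The members and gene lists were chosen with earlier results of these data known. The rule for named genes was every member, the other family genes (Ms4a with a number, Tmem176a, Tmem176b), up to 3 genes per list with Clec7a besides, and the 5 genes most like each member. A gene and a motif under these rules are not reported here. The 25 genes with the largest gap in 254I replicate 4 were listed after their values had been seen. Sequences were taken from RefSeq and gene positions from GENCODE on GRCm38.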

Additional observations from a re-analysis of the deposited data

Results flagged for a closer look

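Each of the 9 groups of 5 libraries was checked for each member for a library that lay far from the rest. This gave 45 checks and 7 flagged values, with some libraries flagged for more than 1 member. Within groups the members varied together, with r from 0.479 (Ms4a4c with Ms4a7) to 0.944 (Ms4a6b with Ms4a6c), so the checks were not independent. The 7 are therefore not set against the chance rate of about 1 in 20 per check. Of the 7, 5 came from the mouse 254I replicate 4, whose values in M0 were the highest of their group for Ms4a4c (128.9 CPM, with the nearest 254I library at 13.9), Ms4a6b (405 against 163) and Ms4a6d (371 against 209). Its M2 values were the highest for Ms4a6c (71.4 CPM against 37.5) and Ms4a6d (295 against 214). The other 2 came from replicate 2, which was the lowest 254V library in M1 for Ms4a4c (69.7 CPM, with the nearest at 182) and the highest 284R library in M2 for Ms4a6d (239 against 216).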

How the results depend on the processing

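Under every alternative that could be run, 5, 4 and 5 members were called in M1 against M0, M2 against M0 and M1 against M2, and 0 in every comparison of genotypes and every interaction. The lowest adjusted p of a member between genotypes was 0.611 averaged, 0.183 within a polarization and 0.704 for an interaction. With the replicate number as a block, which matches the pairing found in M0 and M1, no call of a member changed, and the log2 fold change for Ms4a4c, M1 against M0 was 3.72 ± 0.32. Among the other family genes Ms4a8a gained a call in M1 against M0 with either block, with both limma-voom fits and when any of 5 mice was left out, and Ms4a2 and Ms4a4d gained one without a filter, so 4 to 6 were called there. Leaving out 1 mouse at a time gave 3.51 to 4.14 for that change and -3.44 to -2.96 in M2 against M0. The number of all genes called in 284R against 254I in M1 depended on the setting, with 34 as reported, 64 with the block or DESeq2, 11 with limma-voom, 7 when limma-voom took mice as random, 1 from the compared libraries alone and 0 to 110 with 1 mouse left out. For 284R against 254V in M1 these counts were 10, 36 with the block, 26 with DESeq2, 4 without a filter, 0 with each limma-voom fit and with the compared libraries alone, and 0 to 66 with 1 mouse left out. Averaged over polarizations, 284R against 254I gave 2 to 18 genes with 1 mouse left out and 0 to 11 otherwise. The cause was not tested. Reads recovered from the CPM table called 9362 genes in M1 against M0 and 9293 in M2 against M0, beside 9982 and 9860. A mouse block could not be fitted to genotype differences, sums per mouse gave only averaged ones, and Ms4a4b had no value with at least 10 counts in every library. Below about 1 CPM, as for Ms4a4c in M2, where the lowest count was 13, depth limits the precision.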

Other observations

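In the M0 library of 254I replicate 4, 172 of 12905 genes were at least 2-fold above the highest other 254I M0 library. Ms4a4c ranked 4 among all genes by this distance, Ms4a6b 91, Ms4a6c 234, Ms4a6d 241 and Ms4a7 651. Ahead of Ms4a4c were the chemokine gene Ccl5 (563 CPM against 11.4), the acute-phase gene Saa3 (169.9 against 7.49) and the complement gene Cfb (2.66 against 0.165), and after it came the interferon regulatory factor gene Irf7 (1539 against 171). These genes were named after their values had been seen.

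Arg1 and the other 2 genes used to check the M2 label summed to 123.6 CPM in the M1 library of 254I replicate 5, and to at most 19.9 CPM in the other 14 M1 libraries. The same library had the highest M1 level of Ms4a4a, at 10.3 CPM. In 284R against 254I in M1, 2 of the 7 IL-4 response genes tested were called, both lower, beside 0.263% of all genes. These were Arg1 (log2 fold change -3.69 ± 0.83, adjusted p = 0.0314) and Retnla (-6.92 ± 1.47, adjusted p = 0.0188) by edgeR's test. Without 254I replicate 5 neither was called, at -0.08 ± 0.42 and 0.97 ± 1.83.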
